A study of Mus musculus with 33 samples.

Results

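The 9 genes described here encode structural proteins of central nervous system myelin: Mbp, Mobp, Cnp, Ermn, Mag, Mog, Opalin, Cldn11 and Mal. They were chosen by symbol, as well-known products of the mature oligodendrocyte, with earlier results of these data known. Each was found under 1 gene identifier, 9 of the 54752 genes in the forebrain and hippocampus RNA files, and each was also among the 22523 genes of the footprint files. The series measured mouse brain with different amounts of n-Tr20, an arginine tRNA gene expressed in the central nervous system whose product reads the AGA codon. Mice were 8 weeks old in every group.

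Forebrain RNA was sequenced from 5 groups of 4 mice. These were C57BL/6NJ (B6N) with wild-type n-Tr20, B6N n-Tr20 -/- (B6N knockout), C57BL/6J (B6J), which the labels class as hypomorphic for n-Tr20, B6J with the transgene Tg(n-Tr20), and B6J n-Tr20 -/- (B6J knockout). The design text names the transgene as the B6N form of n-Tr20. No group is a cell-type-specific knockout in the labels, so oligodendrocytes, neurons and other cells of a knockout mouse all carried the deletion. The B6J knockout libraries belong to batch 2 and the other groups to batch 1, with transgenic mouse 4 present in either batch, 21 libraries in all. From hippocampus, B6N and B6N knockout had 3 libraries each for RNA and 3 each for ribosome footprints. A footprint is the stretch of mRNA that a translating ribosome shields from nuclease, so footprint counts follow ribosomes on a message and RNA counts follow the message. The headers of the hippocampus RNA files name B6JN mice where the labels give C57BL/6NJ.

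Myelin is the stack of membrane that an oligodendrocyte wraps around axons. Mbp and Mobp are small basic proteins held at the cytoplasmic faces of this membrane, where Mbp zips the layers into compact myelin. Their mRNAs are known to be carried into oligodendrocyte processes and translated there. Mature oligodendrocytes switch on the family together under the transcription factors SOX10 and MYRF, and the genes are therefore widely used as markers of these cells. In bulk tissue, fewer oligodendrocytes and less RNA per oligodendrocyte cannot be told apart.

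Depth was 14.7 M to 38.5 M estimated counts in forebrain libraries (M, 1000000), 35.8 M to 60.4 M counts in hippocampus RNA and 7.6 M to 17.9 M in footprints. The 9 genes were well counted: the lowest count in any library was 128 in forebrain and 148 in footprints, both for Opalin. Levels are given in CPM, counts per 1000000 after scaling the library sizes by TMM, and errors of levels are SD. Xist and Ddx3y put B6J knockout libraries 1, 2 and 3 as female (Xist 335.5 to 369.0 CPM) and the remaining forebrain libraries as male (0.662 to 2.05 CPM), and hippocampus RNA of knockout 1 as female. The footprint library with that same number held 45.5 CPM of the Y-linked Ddx3y, so the number does not mark 1 mouse there. Markers of dissection moved between libraries as well. The choroid plexus gene Ttr ran from 348.7 to 500.8 CPM in the B6J knockout libraries and from 0.765 to 430.1 CPM in the other forebrain libraries. Prkcd, abundant in thalamus, was at 130.4 CPM in hippocampus RNA library B6N 2 and at 23.2 to 36.3 CPM in the others.

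Per unit of length the members differed widely in forebrain. In B6N, levels recomputed as TPM, transcripts per 1000000, were 295.6 ± 26.1 for Mbp, 113.7 ± 3.89 for Mobp, 46.6 ± 2.41 for Cnp and 40.1 ± 3.11 for Mag (SD, n = 4). Lower in the order came Mal at 34.1 ± 0.667 TPM, Cldn11 at 24.9 ± 1.46, Mog at 13.8 ± 0.777, Ermn at 8.96 ± 0.132 and Opalin at 3.49 ± 0.185. The order was the same in B6N knockout, B6J and B6J transgenic means, while in B6J knockout Mal (40.1 ± 11.8 TPM) stood above Mag (36.0 ± 7.66). In B6N no neighbours in this order had ranges that met, the closest being Cnp (44.4 to 49.9 TPM) and Mag (36.9 to 44.2). In each of the other 4 groups the ranges of Cnp and Mag met, and in B6N knockout, B6J transgenic and B6J knockout those of Mag and Mal did too. B6J knockout had the widest spread, and there Mal met Cldn11 and Mog met Ermn.

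The forebrain files also resolve transcripts, given here as shares of the gene's summed length-corrected estimates. Outside Mag, each gene was led by the same transcript in every library. Mbp-211 made 62.5% to 73.3% of Mbp over the 20 mice, followed by Mbp-212 with 10.2% to 17.8%. Mobp was led by Mobp-204, with 77.3% to 85.2%, a transcript annotated as a target of nonsense-mediated decay, while the protein-coding Mobp-202 made 4.51% to 7.1%. Cnp-201 made 59.7% to 70.7% of Cnp. Mag-203 had the highest mean share of Mag in each group and made 32.3% to 41.2%, a range that met that of Mag-205 (22.6% to 33.3%). Mog-201 made 83.2% to 96.0% of Mog and Mal-202 at least 99.2% of Mal. Cldn11, Opalin and Ermn had 1 annotated transcript each. These shares are model estimates for transcripts that overlap and carry no test.

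**Figure D1:**
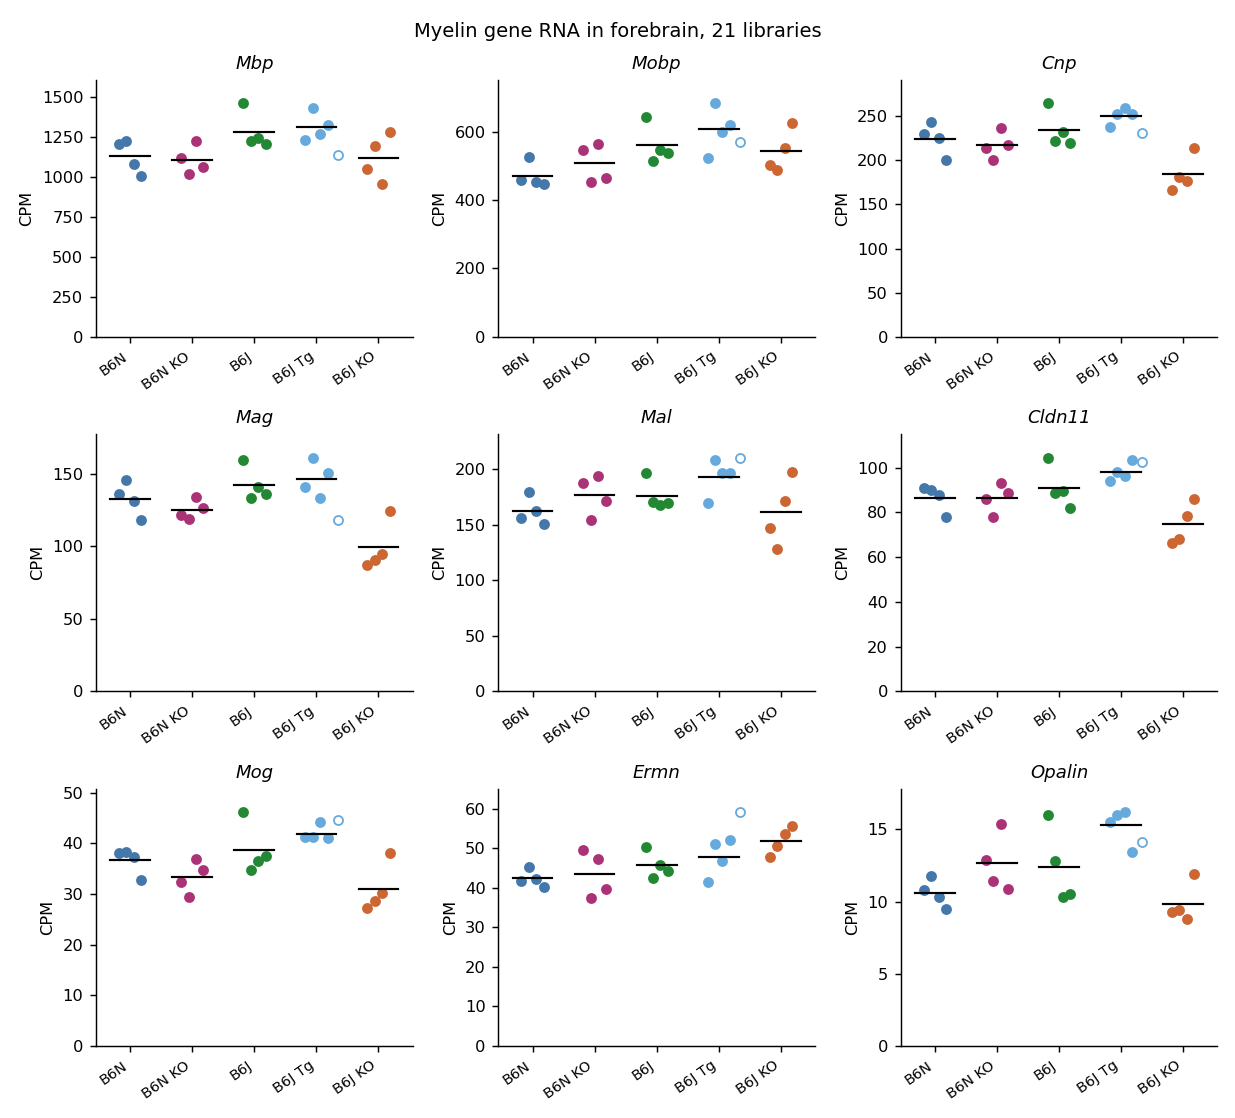
Forebrain RNA of the 9 genes in CPM, each panel starting at 0. Filled points are single libraries, the bar is the mean of 4 mice, and the open circle is the batch 2 library of transgenic mouse 4. Several panels hold pairs of groups whose filled points do not overlap. For Opalin, B6J transgenic (13.4 to 16.2 CPM) lay above B6N (9.48 to 11.8 CPM). For Cnp, Mag, Cldn11, Mog and Opalin, B6J knockout lay below B6J transgenic. The share of all genes with such gaps is not given here.

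In forebrain, the myelin genes of B6N knockout mice stood close to their levels in B6N mice. None of the 9 passed an adjusted p under 0.05, by edgeR's quasi-likelihood test or by DESeq2, and none had an unadjusted p under 0.05, in a comparison where 1.91% of all 25151 genes passed (278 higher, 203 lower). The 9 log2 fold changes ran from -0.13 to 0.25, 4 above 0 and 5 below, with a median of -0.01, against -0.001 over all genes. Mbp had 1204.0, 1226.0, 1082.6 and 1003.0 CPM in B6N and 1116.9, 1019.5, 1225.0 and 1062.9 in the knockout, groups that cover the same range. Its log2 fold change was -0.03 ± 0.08 (SE; 95% interval -0.21 to 0.15; adjusted p = 0.931). The intervals of Mobp (-0.12 to 0.32), Cnp (-0.19 to 0.09), Mag (-0.24 to 0.06), Mal (-0.06 to 0.3), Cldn11 (-0.15 to 0.14), Mog (-0.31 to 0.04) and Ermn (-0.17 to 0.23) also held 0. Opalin, a glycoprotein of the oligodendrocyte membrane, was the most uncertain, with 10.8, 11.8, 10.3 and 9.48 CPM in B6N and 12.9, 11.4, 15.4 and 10.9 in the knockout (0.25 ± 0.13, adjusted p = 0.461). The rest of the lineage looked alike: 0 of 36 other mature oligodendrocyte and myelin genes passed (median log2 -0.01), 0 of 12 myelin lipid enzymes and 0 of 13 oligodendrocyte transcription factors. Of 20 genes of precursors and newly formed oligodendrocytes, Tnr, an extracellular matrix glycoprotein, rose from 180.4 ± 7.75 to 205.6 ± 13 CPM (0.19 ± 0.05, adjusted p = 0.0246).

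In B6J mice, hypomorphic for n-Tr20 per the labels, the 9 estimates were below 0 against B6J transgenic, from -0.29 to -0.03 with a median of -0.1 (all genes, -0.001). Leaving out 1 library moved that median between -0.18 (without B6J 1) and -0.06 (without B6J 2 or B6J 4), and Opalin between -0.44 (without B6J 1) and -0.21 (without B6J 3). None passed by either tool, where 0.25% of genes passed. An unadjusted p under 0.05 was seen for 1 member, and for 2592 of all 25151 genes. That member was Opalin, with 16, 12.8, 10.3 and 10.5 CPM in B6J and 15.5, 16, 16.2 and 13.4 in batch 1 of the transgenic group. The ranges overlap through B6J library 1, the highest of the 21 for Mbp, Cnp, Cldn11 and Mog (log2 -0.29 ± 0.13, adjusted p = 0.472). For Mbp the transgenic mice had 1231.1, 1432.2, 1268.0 and 1325.4 CPM and B6J mice 1461.2, 1227.3, 1240.8 and 1203.3, a difference of -0.03 ± 0.08. The difference between this effect and that of the B6N knockout was tested directly. None of the 9 passed by either tool, 0.0596% of genes did, and Opalin had the largest difference (0.54 ± 0.19, unadjusted p = 0.0109, adjusted p = 0.425).

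**Figure D2:**
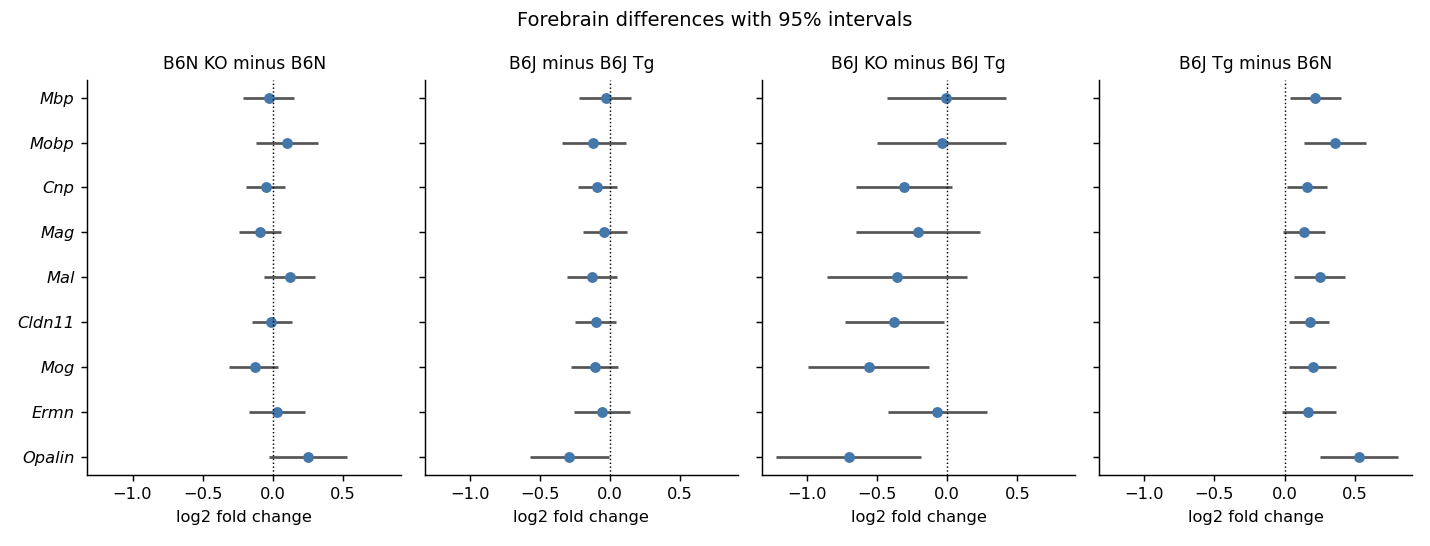
Log2 fold changes of the 9 genes in 4 forebrain comparisons, with 95% intervals from edgeR (n = 4 mice per group). The comparisons share groups and are not independent; intervals are widest for B6J knockout, and the transgenic group lies to the right of 0 against B6N.

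Among the forebrain comparisons of 2 groups tested within batch 1, each of the 9 genes had its estimate furthest from 0 in B6J transgenic against B6N. B6J knockout against B6J transgenic, which spans the batches, had estimates further from 0 for Cnp, Mag, Mal, Cldn11, Mog and Opalin. Both B6J transgenic and B6N have a B6N form of n-Tr20. In B6J transgenic against B6N the 9 estimates were above 0, from 0.14 to 0.53 with a median of 0.2 (all genes, 0.002). An unadjusted p under 0.05 was seen for 7 of them, and for 2230 of all 25151 genes. None passed the adjusted threshold in a comparison where 0.366% of genes did, and DESeq2 called Opalin among 133 genes. Opalin was at 10.6 ± 0.967 CPM in B6N and 15.3 ± 1.3 in B6J transgenic (SD, n = 4), with no overlap (0.53 ± 0.13, 1.45-fold, adjusted p = 0.128). It passed with DESeq2 (adjusted p = 0.0138), with the replicate number as a block (adjusted p = 0.0257, 97 genes called) and when those groups alone were fitted (adjusted p = 0.00214, 87 genes called). Mbp, Cldn11 and Mog did not overlap between these groups either, and the share of all genes without overlap is not given here. Mobp was at 459.8, 526.4, 454.0 and 445.5 CPM in B6N and at 523.6, 683.0, 599.4 and 619.1 in the transgenic mice, overlapping through the lowest transgenic and highest B6N library (0.36 ± 0.1, adjusted p = 0.235). In B6J against B6N the 9 estimates ran from 0.07 to 0.25 with a median of 0.11, none passed by either tool, and 1.73% of genes passed. An unadjusted p under 0.05 was seen for 2 members (Mbp and Mobp), and for 3218 of all 25151 genes. Without B6J library 1 the 9 estimates ran from -0.01 (Mog) to 0.18 with a median of 0.06. These comparisons share the B6N libraries with the knockout comparison, and both sets of B6J comparisons share libraries with each other. Among the other mature oligodendrocyte genes, Il33, a nuclear cytokine of oligodendrocytes, and Qdpr, a pteridine reductase, rose in B6J transgenic against B6N. Il33 went from 23.1 ± 2.28 to 29.8 ± 3.44 CPM (adjusted p = 0.0297) and Qdpr from 76.4 ± 5.94 to 92.2 ± 4.92 (adjusted p = 0.048), with 34 of 36 not passing and a list median of 0.18. Thalamus markers moved with these libraries: their summed level ran from 118.0 to 172.3 CPM in the B6N libraries and was 116.7, 194.9, 260.2 and 208.6 in transgenic libraries 1 to 4. Their part in the result was not tested.

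In CPM, B6J knockout had the lowest means of Cnp, Mag, Mal, Cldn11, Mog and Opalin among the 5 groups and the highest mean of Ermn. In TPM, Mag was again lowest and Ermn highest, but Cnp, Cldn11, Mog and Opalin were not lowest. Mal (40.1 TPM), Mbp (340.3 TPM) and Mobp (145.7 TPM) also had their highest mean in B6J knockout, so this order depends on the scale. These libraries made up batch 2 together with 1 library of transgenic mouse 4. The batch step was measurable in 1 mouse. The batch 2 library of transgenic mouse 4 had 0.784 times the batch 1 level of Mag, 0.856 times that of Mbp and 1.14 times that of Ermn, with the other 6 genes between 0.913 and 1.09. In the fit that takes the batch step from this mouse, the 9 estimates against B6J transgenic were below 0, from -0.7 to -0.01 with a median of -0.31 (all genes, 0.007), and none passed by either tool, where 0.738% of genes passed. Mog, the glycoprotein of the outermost myelin surface, had 27.2, 28.6, 30.2 and 38.2 CPM in knockout libraries 1 to 4 against 41.3, 41.3, 44.2 and 41.0 in transgenic batch 1, with no overlap (-0.56 ± 0.2, adjusted p = 0.271). Opalin had 9.29, 9.44, 8.76 and 11.9 CPM against 15.5, 16, 16.2 and 13.4, also with no overlap (-0.7 ± 0.25, adjusted p = 0.231). Cnp, Mag and Cldn11 did not overlap between these groups either. The share of all genes without overlap is not given here. Mbp (-0.01 ± 0.2) and Mobp (-0.04 ± 0.21) lay close to 0. Knockout library 4, the male one, was the highest of the 4 for each of the 9 genes, and it also held the most thalamus marker RNA (240.4 CPM, against 111.2 to 171.6 in libraries 1 to 3). With no batch term 5 members passed, in a fit where batch and genotype coincide for every gene. The share of all genes passing in it is not given here. With library 4 as the sole knockout library, the estimates ran from -0.43 (Opalin) to 0.19 (Mbp) with a median of -0.06. Without library 4 the median was -0.39 and Mog passed (-0.68, adjusted p = 0.0471). Sex, batch and genotype cannot be told apart for libraries 1 to 3. Against B6J the 9 estimates ran from -0.45 (Mog) to 0.07 (Mobp) with a median of -0.22, none passed by either tool or had an unadjusted p under 0.05, and 0.106% of genes passed. That median was 0.07 with library 4 as the sole knockout library, which turns its direction. Leaving out 1 library moved the median between -0.3 (without knockout 4) and -0.13 (without knockout 2). Of the wider lineage, 0 of 36 mature genes passed in either comparison. Enpp6, a choline phosphodiesterase of newly formed oligodendrocytes, fell against the transgenic mice in the fit with the batch step (-0.76 ± 0.18, adjusted p = 0.0326). CPM values are not adjusted for batch, and for Enpp6 they were 9.51 ± 0.87 in the transgenic mice and 6.86 ± 0.925 in the knockout, a smaller difference.

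Within groups the 9 genes varied together. Over the 16 batch 1 libraries, with each gene taken as its deviation from the group mean, the 36 pairs of members had Pearson correlations from 0.47 to 0.95 with a median of 0.74. These are descriptions over libraries that share depth, dissection and scaling, with no test. Mbp followed the mean of the 9 most closely (r = 0.96) and Opalin least (r = 0.77). By library, the mean log2 deviation of the 9 genes from their 16-library means was highest in B6J 1 (0.24) and transgenic 2 (0.22) and lowest in B6N 4 (-0.23) and B6N knockout 2 (-0.22). Of 20333 genes at 1 CPM or more, the 10 non-members most like the mean of the 9 included Litaf (r = 0.918), Sh3d19 (0.909), Gjc3 (0.907), Scd2 (0.905), Cdc42ep1 (0.905), Map4 (0.905), Tmem88b (0.904), Trf (0.889) and Fth1 (0.889). Gjc3 is an oligodendrocyte connexin, Scd2 a fatty acid desaturase, Trf transferrin and Fth1 the ferritin heavy chain. The summed thalamus markers were at 183.0 CPM in B6J 1 and 194.9 in transgenic 2, and at 118.0 in B6N 4 and 109.3 in B6N knockout 2. Their part in the spread was not tested.

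**Figure D3:**
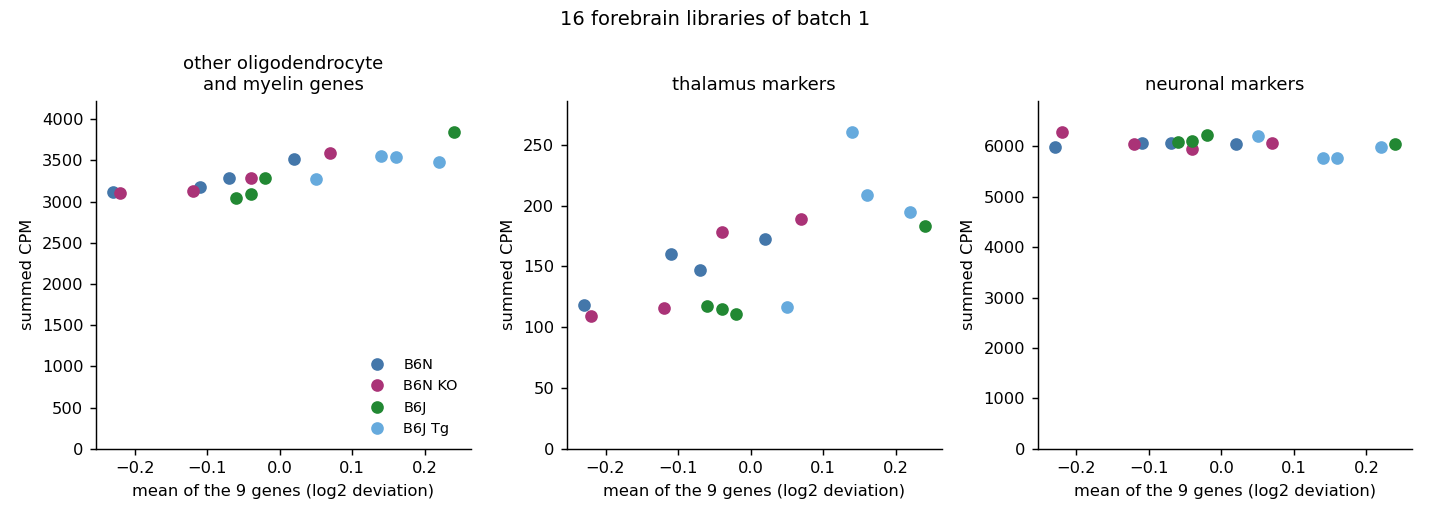
Each point is 1 of the 16 batch 1 forebrain libraries, coloured by group. The horizontal axis is the mean log2 deviation of the 9 myelin genes and the vertical axes, from 0, are summed CPM of 36 other oligodendrocyte and myelin genes, 8 thalamus markers and 10 neuronal markers. Thalamus sums run from 109.3 to 260.2 CPM, while neuronal sums stay between 5767.6 and 6278.9.

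Because the members varied together, their promoters were read for the letters of 2 factors that drive the family. RefSeq start windows on GRCm38.p6, from 250 bases before to 50 after the start, were matched for 8 of the 9 genes by symbol, Mag having 3 windows and the rest 1. ACAAAG, the core bound by SOX proteins, was searched on both strands and is present in 18.7% of all 32851 windows. CTGGCAC, the core of the MYRF motif, was searched likewise and is present in 5.01%. ACAAAG or its reverse complement occurred 6 times in the Mobp window, 2 times in Opalin and 1 time each in Cnp and in 2 of the Mag windows, which overlap and hold the same site. CTGGCAC or its complement occurred 1 time each in Cnp, in Opalin and at 1 site shared by those Mag windows, and the 2 motifs did not overlap. Neither was found in the windows of Mog, Cldn11, Mal and Ermn, which says only that these letters are not in these windows. The windows below are shown 5′ to 3′ along the gene, with the SOX core in capitals for Mobp, Cnp and Opalin and the MYRF core in capitals for Mag. They are chr9:120149492-120149791 (plus strand, Mobp), chr11:100574689-100574988 (plus, Cnp), chr19:41077064-41077363 (minus, Opalin) and chr7:30914814-30915113 (minus, Mag).
Mobp: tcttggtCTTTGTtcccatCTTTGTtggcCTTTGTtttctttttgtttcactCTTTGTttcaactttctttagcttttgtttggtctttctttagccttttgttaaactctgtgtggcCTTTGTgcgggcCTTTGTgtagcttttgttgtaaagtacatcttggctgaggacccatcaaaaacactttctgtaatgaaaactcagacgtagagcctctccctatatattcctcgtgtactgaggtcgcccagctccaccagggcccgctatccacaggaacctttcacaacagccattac
Cnp: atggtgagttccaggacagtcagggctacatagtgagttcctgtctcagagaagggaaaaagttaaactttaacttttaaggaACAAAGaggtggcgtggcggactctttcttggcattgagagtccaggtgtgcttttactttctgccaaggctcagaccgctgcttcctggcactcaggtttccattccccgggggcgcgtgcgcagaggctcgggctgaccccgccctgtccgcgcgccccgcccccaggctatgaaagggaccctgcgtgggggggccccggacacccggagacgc
Opalin: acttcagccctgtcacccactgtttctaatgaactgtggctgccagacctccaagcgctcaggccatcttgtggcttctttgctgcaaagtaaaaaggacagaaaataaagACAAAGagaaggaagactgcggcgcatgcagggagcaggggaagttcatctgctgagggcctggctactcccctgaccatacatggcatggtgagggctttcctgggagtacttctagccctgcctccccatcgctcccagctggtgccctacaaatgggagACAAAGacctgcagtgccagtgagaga
Mag: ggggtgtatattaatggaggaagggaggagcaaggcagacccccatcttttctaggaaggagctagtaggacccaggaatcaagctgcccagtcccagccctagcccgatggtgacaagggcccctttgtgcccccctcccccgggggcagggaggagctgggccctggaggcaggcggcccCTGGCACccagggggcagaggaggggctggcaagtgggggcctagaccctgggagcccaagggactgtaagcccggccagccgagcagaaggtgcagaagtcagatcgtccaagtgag
A match of letters is a description and shows no binding.

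In hippocampus RNA, the 9 genes had estimates below 0 in the B6N knockout, of similar size, and none passed the test. The log2 fold changes ran from -0.46 (Cldn11) to -0.32 (Mobp) with a median of -0.39, against 0.003 over all genes. An unadjusted p under 0.05 was seen for 7 of 9, and for 1536 of all 19352 genes. Adjusted p-values ran from 0.362 to 0.725, none passed in edgeR, and 0.0413% of 19352 genes did (8 genes). DESeq2, which called 132 genes in all, called 3 members (Mbp, Cnp and Mog). Without a filter on low counts, edgeR called these and Opalin, and its count over all genes is not given here. Mbp had 2818.7, 3267.3 and 2511.8 CPM in B6N and 1910.6, 2442.3 and 1984.7 in the knockout, with no overlap (-0.44 ± 0.12, adjusted p = 0.412). Mobp had 976.5, 1157.0 and 781.9 against 656.9, 951.9 and 731.7 CPM, which overlap (-0.32 ± 0.18, adjusted p = 0.725). Cnp, which keeps channels of cytoplasm open in myelin, had 361.6, 404.0 and 323.6 against 268.5, 316.1 and 251.2 CPM, with no overlap (-0.38 ± 0.11, adjusted p = 0.411). Mog did not overlap either, and the share of all genes without overlap is not given here. Library B6N 2 was the highest of the 6 for each of the 9 genes, and it was the one with high Prkcd. Without it the estimates ran from -0.36 (Mog) to -0.17 (Mobp), those of Cldn11 (-0.24), Mobp and Mag (-0.23) moving by about 1.5 times or more. Without knockout 1, the female library, they ran from -0.49 (Cldn11) to -0.21 (Mobp). Of the 36 other mature genes 0 passed, with a median of -0.28. The kit of these libraries (TruSeq v2 mRNA) does not mark the strand. Cnp overlaps Dnajc7, and Mbp overlaps the pseudogene Rpl21-ps8 and the lncRNA Gm52337 in RefSeq, so reads of these pairs cannot be told apart where they overlap.

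In ribosome footprints Mbp and Mobp fell in the knockout, and the other 7 genes did not pass, where 5.35% of 13227 genes passed (290 higher, 418 lower). The difference between members was not tested. DESeq2, which called 1036 genes in all, also called Mbp and Mobp and no other member. Mbp had 527.1, 648.8 and 656.4 CPM of footprints in B6N and 377.3, 376.2 and 424.2 in the knockout, with a gap between the groups. It fell 1.56-fold, from 610.8 ± 72.6 to 392.6 ± 27.4 CPM (log2 -0.64 ± 0.09, 95% interval -0.83 to -0.44, adjusted p = 0.00411). Mobp had 81.7, 76.6 and 81.5 CPM in B6N and 55.0, 57.9 and 48.2 in the knockout, again with a gap. It fell 1.49-fold, from 79.9 ± 2.89 to 53.7 ± 4.96 CPM (-0.57 ± 0.1, adjusted p = 0.0104). The share of all genes with such a gap is not given here. The 7 others had estimates from -0.03 (Ermn) to 0.25 (Cnp). Cnp had 478.9, 344.4 and 357.2 CPM in B6N and 499.5, 462.9 and 441.9 in the knockout, which overlap through B6N library 1 (0.25 ± 0.11, adjusted p = 0.228). Mag, the adhesion protein that faces the axon, had 407.0, 246.6 and 273.5 against 367.7, 358.6 and 329.8 CPM (0.19 ± 0.17). Mog ran from 58.5 to 114.3 CPM in B6N and from 85.1 to 102.9 in the knockout, Cldn11, the claudin of myelin tight junctions, from 283.0 to 421.2 and from 316.1 to 449.4, and Mal, a raft protein of membrane traffic, from 153.3 to 227.3 and from 173.4 to 221.5. Opalin (0.0 ± 0.2) and Ermn, a cytoskeletal protein of late oligodendrocytes (-0.03 ± 0.11), also overlapped between the groups.

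Leaving out each of the 6 footprint libraries in turn, Mbp stayed between -0.73 and -0.58 and passed each time, and Mobp stayed between -0.63 and -0.51 and passed except without B6N 3 (-0.56, adjusted p = 0.083). Without B6N 1, the library highest for 5 of the 9 genes, Cnp (0.42, adjusted p = 0.0129) and Mag (0.44, adjusted p = 0.0138) passed as higher. The count over all genes moved more, from 32 called without B6N 3 and 59 without knockout 2 to 916 without B6N 1. The balance within the family shows B6N 1 too. Mbp footprints were 30.2%, 55.7% and 49.1% of the summed counts of the 7 others in B6N libraries 1 to 3, and 22.0%, 24.0% and 29.8% in the knockout, so B6N 1 lay next to knockout 3. Mobp footprints were 4.69%, 6.58% and 6.1% of that sum in B6N and 3.2%, 3.69% and 3.38% in the knockout. In RNA the same share for Mbp was 225.7%, 229.1% and 238.3% in B6N and 218.9%, 226.4% and 222.3% in the knockout, and for Mobp 74.2% to 81.1% and 75.3% to 88.2%, both overlapping.

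**Figure D4:**
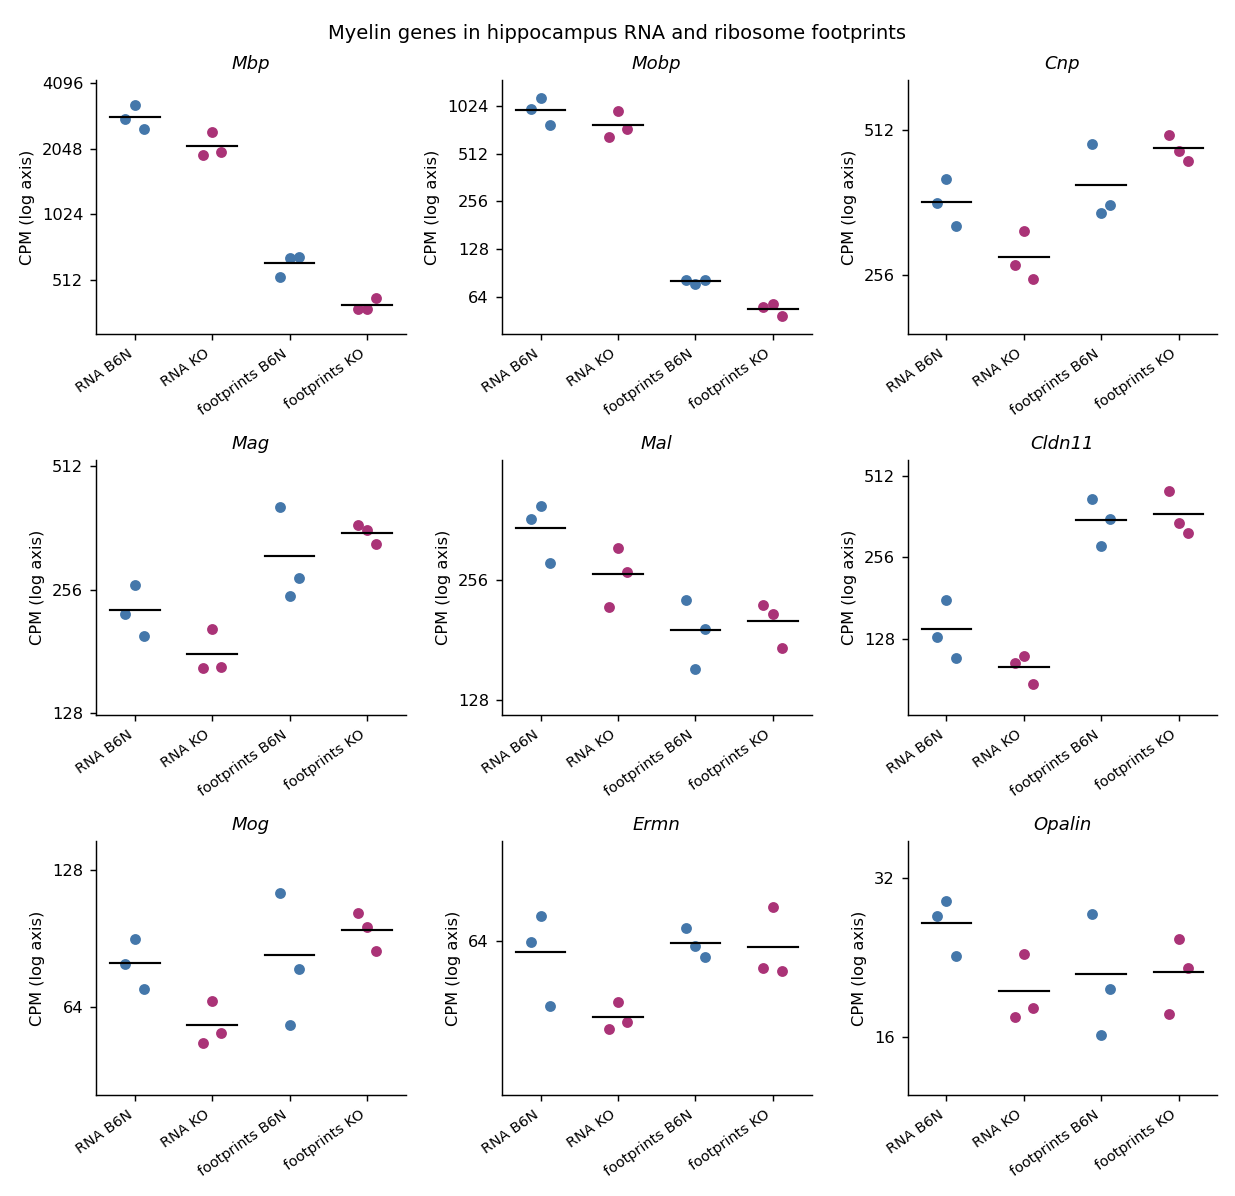
CPM of the 9 genes in hippocampus RNA and footprints, on a log axis, with single libraries as points and the mean of 3 as a bar. The footprint groups of Mbp (527.1 to 656.4 against 376.2 to 424.2 CPM) and Mobp (76.6 to 81.7 against 48.2 to 57.9 CPM) do not overlap, and footprint groups of the other genes do. The share of all genes whose footprint groups do not overlap is not given here, so this describes the points only.

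Other lists moved in the same footprint libraries. Of 13 oligodendrocyte transcription factors, Olig1 and Olig2, which set up the lineage, fell (91.7 ± 12.3 to 64.6 ± 10.3 CPM, adjusted p = 0.0391, and 23.3 ± 4.32 to 14.4 ± 0.893 CPM, adjusted p = 0.0305). Of 20 precursor and newly formed oligodendrocyte genes Bcas1 fell (47.4 ± 5.44 to 33.1 ± 2.58 CPM, adjusted p = 0.0276). None of the 36 other mature genes passed (median -0.04), nor did the 12 lipid enzymes (median 0.1) or the 14 axon and node partners (median -0.11). Markers of other cells moved beside them: 4 of 10 microglial genes fell (C1qa, C1qb, C1qc and Cx3cr1), as did 3 of 10 astrocyte genes (Aldoc, Mlc1 and S100b) and the neuronal Nrgn. Summed microglial markers were 665.1, 725.7 and 788.6 CPM in B6N and 592.3, 613.2 and 601.3 in the knockout. Striatum markers went the other way, 5 of 8 rising (Drd1, Pde10a, Penk and Rgs9 among them), with a summed level of 145.9 to 172.8 CPM in B6N and 218.4 to 397.0 in the knockout. In hippocampus RNA the striatum sum was 184.9 to 199.5 and 182.7 to 205.8 CPM. Without knockout 1, the library with the highest striatum sum, Mbp had -0.61 and Mobp -0.59, and the remaining knockout libraries still held more striatum marker RNA than any B6N library. Of 9 choroid plexus and 8 endothelial genes 0 passed in footprints, with estimates from 0.27 to 0.71 (median 0.53) and from 0.03 to 0.71 (median 0.44). Ttr footprints ran from 5784.8 to 12791.3 CPM in B6N and from 7655.9 to 17413.5 in the knockout, and its RNA from 68.7 to 2499.8 and from 44.2 to 3697.0 CPM. The part of these markers in the result was not tested.

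Translational efficiency, footprints relative to RNA, was tested as a term for assay by genotype in 1 model of the 12 hippocampus libraries. None of the 9 passed in edgeR, and 0% of 15202 genes did, with 2251 genes at an unadjusted p under 0.05. DESeq2 called 492 genes, 1 of them a member (Cnp, 0.6, adjusted p = 0.0495). The estimates were -0.22 ± 0.17 for Mbp (95% interval -0.58 to 0.13) and -0.28 ± 0.22 for Mobp (-0.75 to 0.18), and without RNA library knockout 2 both were at -0.1. They were above 0 for the other 7, from 0.32 (Ermn) to 0.61 (Cnp and Mog), RNA estimates being below 0 and footprint estimates between -0.03 and 0.25. The largest by p was Cnp (0.61 ± 0.18, unadjusted p = 0.00449, adjusted p = 0.151). Without footprint library B6N 1, Cnp (0.76, adjusted p = 0.025), Mag (0.75, adjusted p = 0.0386) and Mog (0.89, adjusted p = 0.0328) passed. The count over all genes in that fit is not given here. The fall of Mbp and Mobp footprints was not shown to differ from the change of their RNA.

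**Figure D5:**
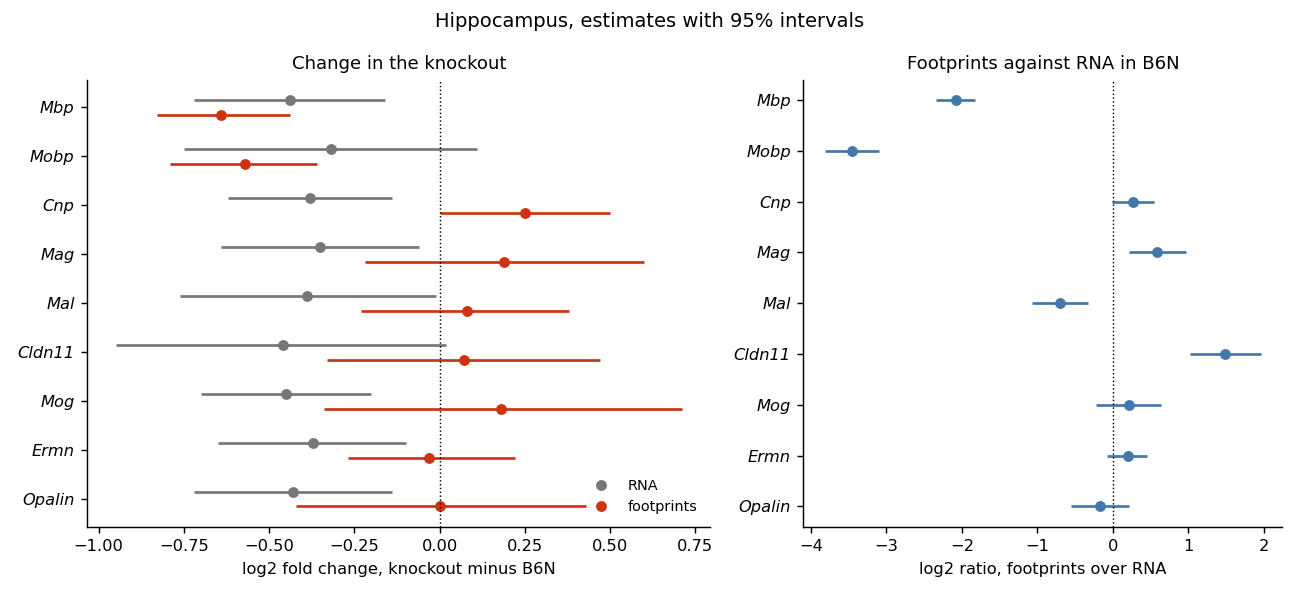
Left, log2 fold changes of the B6N knockout against B6N in hippocampus RNA (grey) and footprints (red), with 95% intervals (n = 3 per group and assay). Right, log2 ratio of footprints to RNA in B6N. Footprint intervals of Mbp and Mobp lie below 0, and these genes also have the lowest ratios in B6N (-2.08 and -3.45).

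Mbp and Mobp were also the members with fewest footprints for their RNA in B6N hippocampus. This comparison is relative to the typical gene of the 15202 tested, 70.7% of which passed. Mobp had a log2 ratio of -3.45 ± 0.16 (11-fold lower, adjusted p = 4.62e-10) and Mbp of -2.08 ± 0.12 (4.23-fold lower, adjusted p = 6.45e-10), and 594 and 1346 called genes had a lower ratio than Mobp and Mbp. Mal was lower as well (-0.7 ± 0.17, adjusted p = 0.00262). Cldn11 (1.49 ± 0.21, 2.82-fold higher, adjusted p = 6.75e-05) and Mag (0.59 ± 0.17, adjusted p = 0.00927) were higher, and Cnp, Mog, Ermn and Opalin did not pass (-0.17 to 0.27). DESeq2 called 5 members too, among 10997 genes. Without RNA library B6N 2, Cnp (0.35, adjusted p = 0.0359) and Ermn (0.31, adjusted p = 0.0418) also passed, without footprint library B6N 2 Cnp (0.33, adjusted p = 0.0363) and Mog (0.39, adjusted p = 0.0394), and without footprint library B6N 1 Opalin (-0.43, adjusted p = 0.0452). RNA is counted over a gene's exons and footprints mostly arise from the coding part, so the ratio also carries how much of a transcript is coding. In the knockout, mean footprint CPM over mean RNA CPM was 0.186 for Mbp and 0.0688 for Mobp, against 0.213 and 0.0823 in B6N, while for Cnp it was 1.68 against 1.08. These CPM were scaled within each assay, so they differ from the fitted ratios above, which were scaled over both assays. Among 587 genes with a B6N ratio under -2 on the log2 scale, 3.41% fell in knockout footprints and 0.681% rose, and among 2072 genes with a ratio of 1 or more, 3.38% fell and 3.47% rose. In between, 5.1% fell and 0.486% rose at a ratio of -2 to -1. From -1 to 0 the shares were 2.81% and 1.61%, and from 0 to 1 they were 2.35% and 2.94%. The share that fell did not follow the order of the ratio. The ratio and the change share the B6N footprint libraries, so this is a description.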

How the data were processed

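Forebrain files were deposited as estimated counts per transcript, with effective lengths, in the kallisto layout per the file headers, and their TPM columns were not used here. Estimated counts were summed per gene identifier and rounded, and TPM was recomputed from them and the effective lengths for comparison between genes and isoforms. Hippocampus RNA and footprint files were deposited by the authors as whole counts per gene, not normalized. Per the labels' protocols, forebrain libraries came from RNA without ribosomal RNA, made with a stranded kit, and hippocampus RNA was purified by poly(dT). Tools listed in the submitters' processing notes are Bowtie2 2.2.3, featureCounts, HISAT2 2.1.0 and kallisto 0.42.4, with build mm10, and which tool made which file is not given in the sources used here. Gene positions and promoter windows are RefSeq's for GRCm38.p6.

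Tests used edgeR 4.0.16 in R 4.3.3 (TMM, filterByExpr with a minimum count of 10, robust quasi-likelihood test, two-sided). P-values were adjusted by Benjamini and Hochberg's method across every gene of a comparison, and a gene rose or fell at an adjusted p under 0.05. The 16 batch 1 forebrain libraries shared 1 fit. B6J knockout was tested in a fit of 21 libraries with a batch term set by transgenic mouse 4. The hippocampus assays were fitted in separate models, and in 1 model for their ratio. There were 11 comparisons, repeated with DESeq2 1.42.0 and under other scalings, filters, designs and with each library left out, and the scripts were tested on simulated data. The labels do not say that samples of 1 number share a mouse. Same-numbered libraries deviated together in every pair only between B6N and B6J forebrain (r from 0.12 to 0.47 over 4 pairs). P-values treat libraries as separate animals and otherwise measure the spread between these samples. No pair of libraries of 1 group agreed within counting noise (lowest chi-square per degree of freedom 2.73 over 46 pairs). The members, the gene lists, the motifs and the rule for the 10 most alike genes were chosen with earlier results of these data known. All 9 members are named in each comparison, and of each list the called genes, up to 4 by adjusted p. A few genes of these lists are not reported here.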

Additional observations from a re-analysis of the deposited data

Results flagged for a closer look

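In each group of 4 mice or libraries, Dixon's test asks whether 1 library lies far from the others. Of 45 such tests, 9 genes in 5 forebrain groups, 3 passed the 95% critical value for groups of 4, and chance passes about 1 in 20. Mbp in B6J library 1 was at 1461.2 CPM, with the others at 1203.3 to 1240.8. Mal in the same library was at 196.5 CPM, with the others at 167.5 to 170.3. Mog in B6J transgenic library 3 was at 44.2 CPM, with the others at 41.0 to 41.3. B6J library 1 was above the 16-library mean for 9 of the 9 genes, and it held 430.1 CPM of Ttr against 0.765 to 1.77 in the other B6J libraries.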

How the results depend on the processing

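Of 1602 values of single members under other settings, 1568 stayed on the same side of the threshold, 33 newly passed, 1 no longer passed (Mobp footprints, given with the result) and none that passed changed sign. Another 48 values that passed in neither fit changed sign, reaching at most 0.2 on the log2 scale. Counts of members called changed as follows, against 0 unless stated. In B6J transgenic against B6N, 1 passed with DESeq2 (133 of 19652 genes called) and 1 with the replicate block (97 of 25151). There 1 also passed when only those groups were fitted (87 of 24306). In B6J knockout against transgenic, 2 passed with transgenic mouse 4 kept in its group and 5 with no batch term, and leaving out 1 mouse gave 0 to 1. Against B6J, 3 passed with no batch term. In both comparisons the fit with no batch term cannot separate batch from genotype. In hippocampus RNA, 3 passed with DESeq2, which called 132 genes there, and 4 with no filter. In footprints, leaving out 1 library gave 1 to 4 against 2. For footprints relative to RNA in the knockout, DESeq2 gave 1 and leaving out 1 library 0 to 3. The replicate block left 0 members called in B6J against B6N, the comparison whose numbers paired, and 2 in footprints, and it gave 6 against 5 for the ratio in B6N. Where no count over all genes is given for a setting, its member count describes the members only. Leaving out transgenic mouse 4 in the batch 2 fit was not run, since that mouse sets the batch step. Opalin had the lowest level of the 9 members in each assay, and values are relative to the other genes of a library. The causes of these changes were not tested.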
